A study of Mus musculus with 2 samples.

Results

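The genes described here are the Hedgehog ligand genes Shh, Ihh and Dhh, the receptor genes Ptch1 and Smo, the gene of the ligand-binding antagonist Hhip, and the genes of the transcription factors Gli1, Gli2 and Gli3. They were chosen by symbol in the annotation of the array, with all of their probe sets, and made up 9 of 18194 named genes and 21 of 45101 probe sets. Each of the 21 probe sets paired with 1 symbol, and no probe set listed under several symbols included a member. RNA of wild type whole mouse embryos at E14.5 had been measured in duplicate on Affymetrix Mouse Genome 430 2.0 arrays, in parallel with an in situ hybridisation atlas of the same stage. Both arrays were of 1 condition, without mutant or treatment, and the methods name NMRI and C57/BL6 as strains of E14.5 embryos without saying which of them the arrays used. The sources used here do not state if the RNA on array 2 was a second preparation. The spread between the arrays may therefore be technical, no groups were compared and no p-value was computed.

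Hedgehog proteins are secreted, lipid-modified signals that pattern the neural tube, the limb, the skeleton and many epithelial organs. Without ligand, Ptch1 keeps Smo inactive and Gli3, with part of Gli2, is cut to a repressor. With ligand bound to Ptch1, Smo accumulates in the primary cilium and the Gli factors act as activators, and Ptch1, Hhip and Gli1 are themselves widely used target genes of the pathway. Shh is made by the notochord, the floor plate and several epithelia, Ihh by cartilage cells about to enlarge, and Dhh by Schwann cell precursors and by Sertoli cells of the testis.

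Transcripts of all classes of the pathway were recorded in the whole embryo. Of the 9 genes, 8 lay above background on both arrays (Shh, Ihh, Ptch1, Smo, Hhip, Gli1, Gli2 and Gli3), and Dhh lay above it on array 1 only. As background, the signals of 81 probe sets for odorant, pheromone and bitter taste receptors, assumed to be silent in the embryo, were used, and their 95th percentile gave a bound of 27.9 on array 1 and 33.8 on array 2. A gene passed when a probe set exceeded the bound on array 1 and one did so on array 2. Signals are GCOS intensities on a linear scale, and the median probe set had 32.0 on array 1 and 35.3 on array 2. Over all named genes 65.5% passed. Genes with more probe sets passed more often, with 48.6% for 1 probe set (as for Ihh and Gli1), 76.1% for 2 (Shh, Dhh and Gli2), 87.4% for 3 (Ptch1, Smo and Gli3) and 93.6% for 4 or more (Hhip). These shares added up to 6.81 genes over the 9, against the 8 that passed. The sample was a whole embryo, so fewer cells with a transcript and less transcript per cell cannot be told apart. Probe sets differ in their response, and no order of the genes by level was drawn from them.

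Shh, the ligand of the notochord and floor plate, was above background on both arrays. Its probe set 1436869_at gave 129.6 on array 1 and 112.0 on array 2, which was 4.65 and 3.31 times the bound. The other probe set of Shh, 1427571_at, lay below the bound on both arrays, at 7.0 and 11.2. Both arrays therefore placed Shh above background through 1 of its 2 probe sets.

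Ihh, the signal of growing cartilage, is represented by the single probe set 1450704_at. It gave 40.1 on array 1 and 53.8 on array 2, or 1.44 and 1.59 times the bound. Ihh was thus near the bound, but on the same side of it on both arrays.

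Dhh was divided between the arrays. Its probe set 1434959_at gave 40.7 on array 1, above the bound, and 29.5 on array 2, below it. The probe set 1422127_at of Dhh gave 0.8 and 1.1. Neither array gave a Dhh signal as high as 2 times its bound, and a value under the bound is no proof that a transcript was missing.

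Among the receptor genes, Ptch1, which encodes the ligand receptor, reached 548.0 on array 1 and 579.2 on array 2 with 1428853_at, 19.6 and 17.1 times the bound. A further Ptch1 probe set, 1439663_at, passed with 43.3 and 40.2, and the third, 1450824_at, gave 2.7 and 5.7. The arrays differed little from each other in each of these probe sets that passed, whereas the probe sets themselves ranged from below the bound to far above it.

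Smo encodes the membrane protein that passes the signal on. Its probe set 1427049_s_at gave 373.6 and 328.1, and 1427048_at, which was made from the same sequence record, gave 226.0 and 180.9. These probe sets are not independent of each other, and the suffix of 1427049_s_at marks it as open to cross-hybridisation. With 1427048_at alone Smo still stood at 8.1 and 5.35 times the bound. The third probe set of Smo, 1442215_at, gave 0.7 and 3.1.

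Hhip, which binds all Hedgehog ligands at the cell surface and limits their range, was near the bound on both arrays. Only 1455277_at passed, at 34.4 on array 1 and 35.1 on array 2, which was 1.23 and 1.04 times the bound. The other 3 probe sets of Hhip gave between 9.1 and 21.0. Hhip did not pass with a bound at the 99th percentile or with the median of each array as the bound.

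All Gli genes were above background. Gli1, an activator and a target of the pathway, is measured by 1449058_at alone, which gave 68.6 on array 1 and 42.3 on array 2. Both values lay above the bound, at 2.46 and 1.25 times it, with array 1 the higher.

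Gli2, the main activator, gave 230.4 and 301.6 with 1459211_at. Its second probe set, 1446086_s_at, gave 90.8 and 136.4 and was made from the same sequence record as the first, so that the pair is not independent. The suffix of 1446086_s_at also marks it as open to cross-hybridisation. Both probe sets of Gli2 passed on both arrays and both were higher on array 2.

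Gli3, the main repressor, gave 245.1 and 257.8 with 1455154_at and 207.5 and 222.5 with 1456067_at. These probe sets were made from different sequence records. They stood at 8.78 and 7.63 times the bound and at 7.44 and 6.58 times the bound. The third probe set of Gli3, 1450525_at, gave 12.2 and 19.5, below the bound on both arrays.

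**Figure D1:**
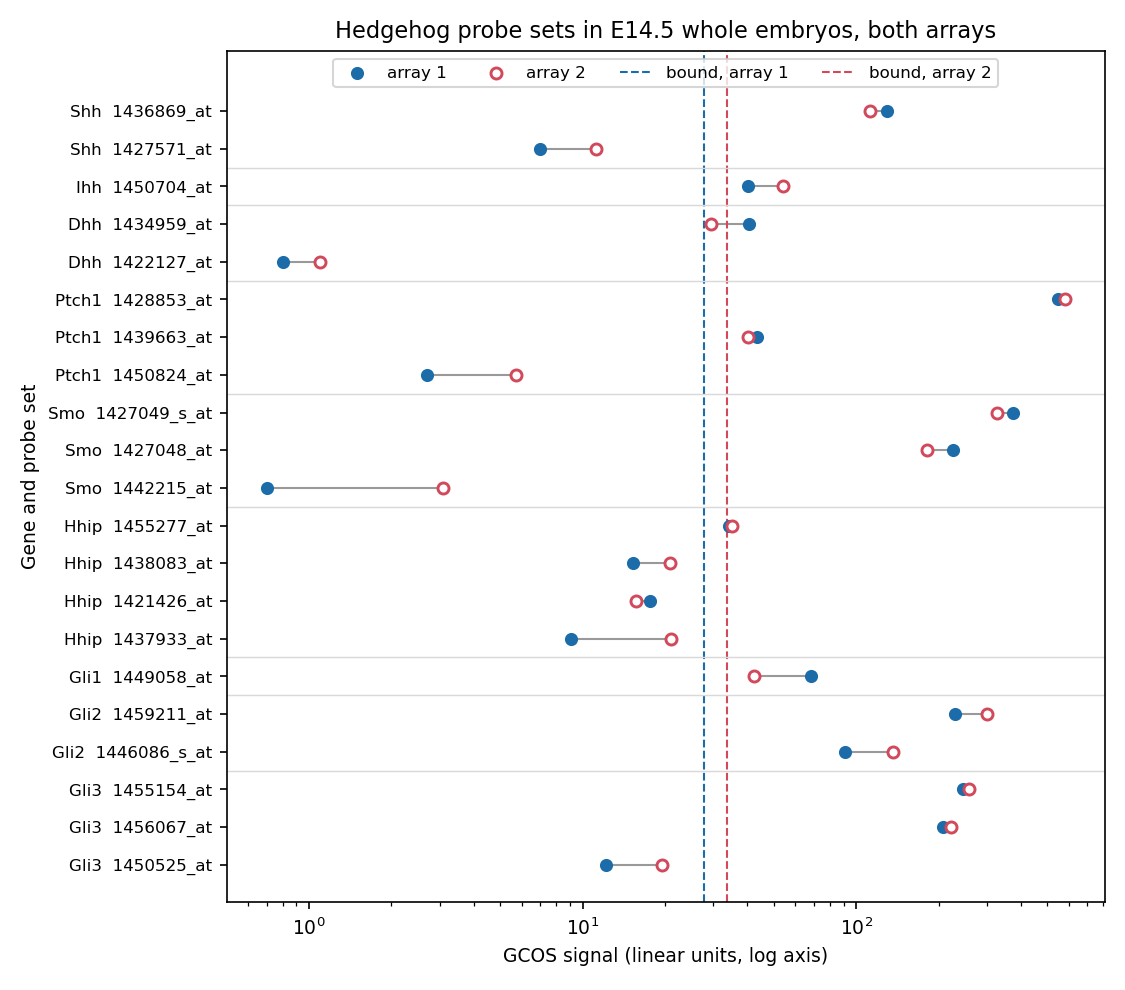
GCOS signal (log axis) of each of the 21 probe sets of the 9 Hedgehog genes on array 1 (filled blue) and array 2 (open red), with the background bound of each array as a dashed line. For Shh, Ptch1, Smo, Hhip and Gli3 some probe sets lie to the right of the bounds and others to the left, and the upper Dhh probe set lies above the bound of array 1 and below that of array 2.

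Whether a gene was seen depended on the probe set. Of the 21 probe sets, 12 were above the bound on both arrays, 1 on array 1 only and 8 on neither, and these 8 belonged to 6 genes. Of all probe sets on the array 49.1% were above it on both, and 55.6% of those with 1 symbol. Of the 7 members with more than 1 probe set, 5 (Shh, Ptch1, Smo, Hhip and Gli3) had probe sets on both sides of the bound. Such a division was found in 53.3% of the 9012 named genes with 2 or more probe sets, so that it was common on the array.

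The low probe sets of Ptch1, Gli3, Dhh and Hhip included those made from RefSeq mRNA records. In Ptch1, Gli3 and Hhip the probe set of the RefSeq record was below the bound and another probe set passed, and in Dhh neither kind passed on both arrays. Among the 2174 named genes with both kinds of probe set, only another probe set passed in 16.9% and only one from a RefSeq record in 20.4%. The members with both kinds number 4, too few to describe a trend. Ihh and Gli1, which have only a probe set from a RefSeq record, passed through it.

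The duplicates gave close signals for many of the probe sets, with Gli1, Gli2 and Ihh furthest apart. The log2 difference (array 2 minus array 1, centred on the median of all probe sets above the bound) had a median of 0.04 over the 12 probe sets that passed, with an SD of 0.35, and 7 were higher and 5 lower on array 2. Over all 22138 probe sets above the bound the SD was 0.26. Gli1 had the lowest value, -0.71, which is a difference of 1.63-fold. The 6488 probe sets whose mean log2 signal was within 0.5 of that of Gli1 had an SD of 0.32. Gli1 was the only 1 of the 12 beyond 1.5-fold, where 3.74% of all probe sets above the bound lay, and 5.45% of those with a mean signal from 40 to 160.

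Gli2 differed in the opposite direction, at 0.58 (1.49-fold, and beyond 1.5-fold without centring or with loess) for 1446086_s_at and 0.38 (1.3-fold) for 1459211_at, where probe sets of similar signal had SDs of 0.25 and 0.2. Ihh stood at 0.41, with an SD of 0.31 for probe sets of similar signal. The probe sets of Gli3 stood at 0.06 and 0.09, and those of Ptch1 at 0.07 and -0.12. Smo was lower on array 2 in both probe sets, at -0.2 and -0.33, and Shh stood at -0.22. Hhip was at 0.02. Each value sets a single array against its duplicate, and whether they lay in the embryos, the RNA or the hybridisation was not tested.

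**Figure D2:**
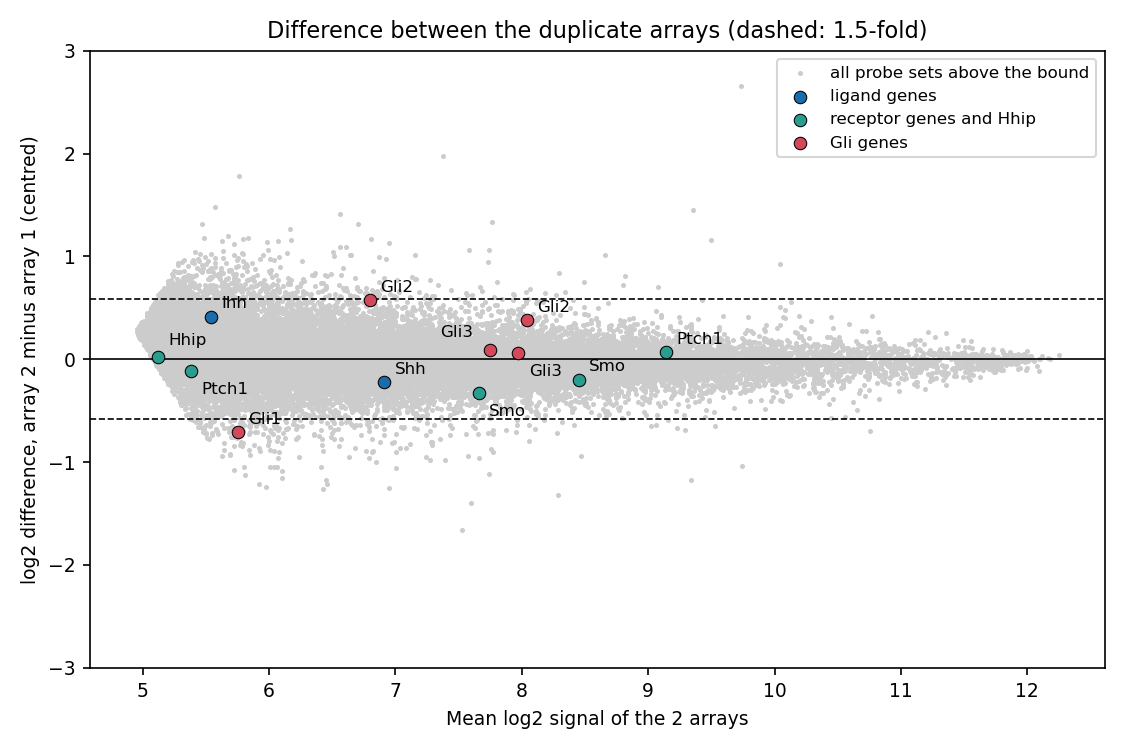
Log2 difference between the arrays (array 2 minus array 1, centred) against the mean log2 signal for the 22138 probe sets above the bound on both arrays (grey), with ligand genes in blue, receptor genes and Hhip in green and Gli genes in red. Dashed lines mark 1.5-fold. Gli1 lies below the lower line at -0.71, and the Gli2 probe sets lie above 0 at 0.58 and 0.38.

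Genes that act with the members were above background about as often as, or somewhat more often than, genes with as many probe sets. Of 35 measured genes for release, reception, transduction and control of the pathway, 29 passed on both arrays (82.9%, against 65.5% of all named genes), 4 on array 1 only, 1 on array 2 only and 1 on neither. Many of these genes have several probe sets, and the shares of genes with as many probe sets added up to 26.2 of the 35. The values given are those of the probe set with the highest mean. Of 6 release genes 4 passed, where the shares of genes with as many probe sets added up to 3.85. Disp1, which frees lipid-modified ligand from the cell that makes it, gave 103.3 and 88.0, and Hhat, which attaches the palmitoyl group to the ligand, gave 56.7 and 53.1. Disp2 (75.7 and 95.8) and Scube1 (54.0 and 43.2), which encodes a secreted carrier, passed as well. The related carriers Scube2 (43.0 and 28.7) and Scube3 (31.6 and 30.0) were above the bound on array 1 only.

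The genes of the co-receptors Gas1, Cdon and Boc, which help ligand bind to Ptch1, were above background. Gas1 gave 1151.5 on array 1 and 1074.3 on array 2, Cdon 350.1 and 314.3, and Boc 167.6 and 151.3. Gpc3, a glypican that competes for ligand, gave 165.5 and 95. Lrp2, an endocytic receptor that also binds Shh, was above the bound on array 2 only, at 19.8 and 36.4, and Gpc5 on neither, at 8.9 and 10.4. In the reception list 4 of 6 measured genes passed, where the shares of genes with as many probe sets added up to 4.35.

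At the cilium, 7 of 9 measured genes passed, where the shares of genes with as many probe sets added up to 6.15. Evc (95.5 and 94.2) and Evc2 (84.1 and 93.5), whose products bind Smo at the base of the cilium, and Gpr161 (84.6 and 84.5), a receptor that restrains the pathway, gave signals that hardly differed between the arrays. Kif7, the kinesin of the cilium tip, was above the bound on array 1 only, at 28.8 and 19.1, as was Efcab7, which tethers the Evc proteins, at 31.1 and 29.0. All 14 measured genes of Gli control passed, where the shares of genes with as many probe sets added up to 11.9. Among them were Sufu, which holds Gli proteins in the cytoplasm (185.1 and 191.7), and the protein kinase A genes Prkaca (1038.1 and 1088.1), Prkacb (523.0 and 464.9) and Prkar1a (1160.6 and 986.9). Protein kinase A and other members of this list also serve many other pathways and are used in most cells.

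**Figure D3:**
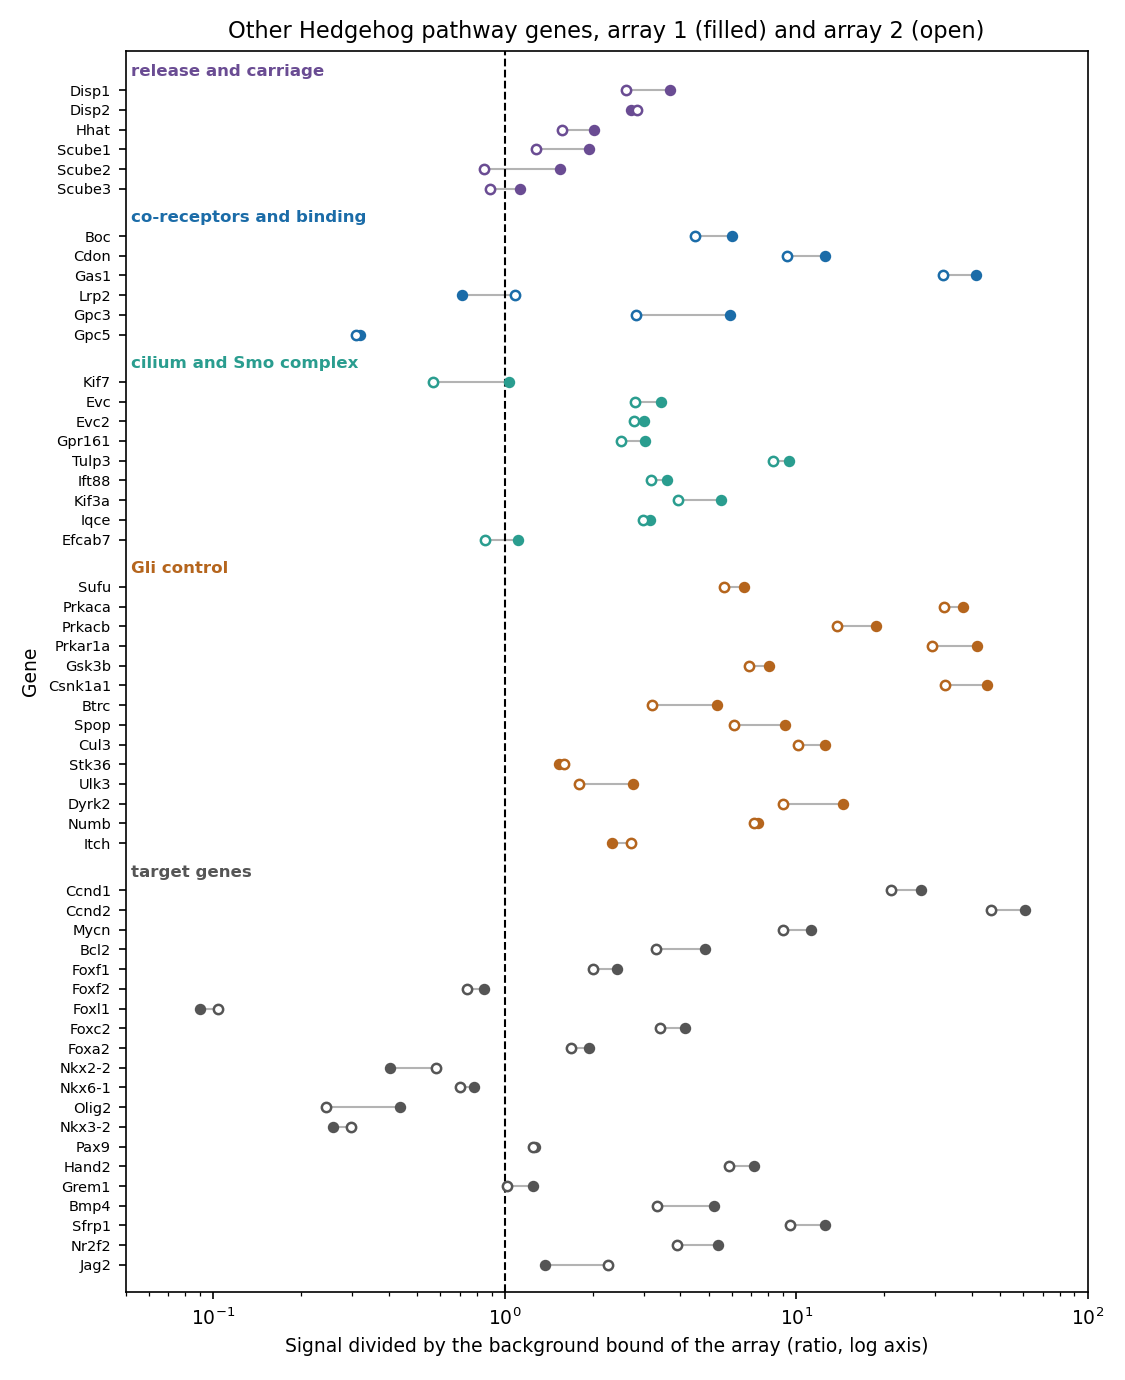
Signal divided by the bound of the array (log axis) for the measured genes of release, reception, cilium, Gli control and target lists, with array 1 filled and array 2 open; each gene is shown by its probe set with the highest mean signal. All 14 Gli control genes lie to the right of the dashed line at 1 on both arrays, and 6 of 20 target genes lie to its left on both.

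Target genes passed about as often as other genes of the array. Of 20 measured genes known as Hedgehog targets in some tissue, other than the members, 14 passed on both arrays (70.0%, against 65.5% of all named genes) and 6 on neither. The shares of genes with as many probe sets added up to 13.9 of the 20, and 5 of the 6 have a single probe set. Broadly used growth genes were among those that passed, with the cyclin genes Ccnd1 at 748.1 and 712.0 and Ccnd2 at 1703.3 and 1575.2. Mycn at 313.5 and 303.2 and the survival gene Bcl2 at 135.6 and 111.5 passed as well. The others that passed were Foxf1, Foxc2, Foxa2, Pax9, Hand2, Grem1, Bmp4, Sfrp1, Nr2f2 and Jag2, named after their values were seen. They ranged from Grem1, near the bound at 34.9 and 34.5, to Sfrp1 at 349.6 and 321.8, with Hand2 at 199.7 and 198.9. The 6 genes below the bound were Nkx2-2, Nkx6-1, Olig2, Foxf2, Foxl1 and Nkx3-2, which are named here after their values were seen. Nkx2-2 (11.3 and 19.6), Nkx6-1 (21.8 and 23.8) and Olig2 (12.2 and 8.2) encode transcription factors that Shh induces in the ventral neural tube. Foxf2 gave 23.6 and 25.0, whereas the related gut mesenchyme factor gene Foxf1, also named after its values were seen, passed with 67.7 and 67.5. Foxl1 gave 2.5 and 3.5, and Nkx3-2, a factor of the sclerotome, 7.2 and 10.0. Ptch1, Gli1 and Hhip, which are targets too, are counted with the members above and not in these numbers.

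Markers of the tissues known to make each ligand were set beside the ligand genes. Of the whole-embryo markers, all 8 (Afp, Hbb-y, Myog, Col2a1, Tubb3, Sox2, Krt5 and Pecam1) passed, where the shares of genes with as many probe sets added up to 4.72. They stand for liver, blood, muscle, cartilage, neurons, neural progenitors, epidermis and endothelium, each through a single gene. Pecam1, the endothelial marker, was near the bound on array 2, at 52.2 on array 1 and 38.8 on array 2. The numbers that passed in these lists are read against 65.5% of all named genes and against the sum of the shares of genes with as many probe sets. Beside Shh, 5 of 6 measured markers of floor plate and notochord passed (sum 4.03). They were Foxa2 (54.2 and 56.8), Foxa1 (67.4 and 61.8), Ntn1 (167.9 and 157.5), Sulf1 (233.7 and 210.3) and Spon1 (234.6 and 224.3), and Nog was below the bound at 7.4 and 6.3. Foxa2 is also counted among the target genes. Of the markers of gut, lung and bladder epithelium, which also make Shh, 5 of 7 passed (sum 5.06), namely Cdh1 (696.6 and 641.1), Krt8 (508.3 and 555.3), Epcam (76 and 63.3), Sox17 (61.7 and 53.1) and Upk1b (76.7 and 80.8), but not Nkx2-1 (13.7 and 24.3) or Cdx2 (27.2 and 23.2). Beside Ihh, all 5 measured markers of enlarging cartilage passed (sum 3.27). The parathyroid hormone receptor gene Pth1r gave 269.6 and 308.7, Col10a1 65.7 and 53.2, Sp7 48.1 and 71.9, Mef2c 507.8 and 436.5 and Panx3 91.0 and 104.2.

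Beside Dhh, the Schwann lineage markers passed in 4 of 5 cases (sum 3.37), with Sox10 at 127.0 and 111.8, Erbb3 at 262.1 and 238.3, Foxd3 at 46.2 and 47.5 and Pmp22 at 635.3 and 664.7, and Egr2, a gene of later myelination, was below the bound at 16 and 27.4. Of the Sertoli cell markers 4 of 7 passed (sum 4.06). The defining gene Amh was near 0, at 2.0 and 2.1, and Dmrt1 (5.1 and 8.6) and Nr5a1 (27.2 and 17.8) were also below the bound. Those that passed were Sox9 (167.6 and 151.2), Wt1 (37.4 and 43.1), Aard (77.8 and 79.5) and Cyp26b1 (102.1 and 74.2), which include genes used in cartilage, kidney and other tissues. Many of the markers are shared between tissues, and from which tissue each ligand transcript came was not tested.

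**Figure D4:**
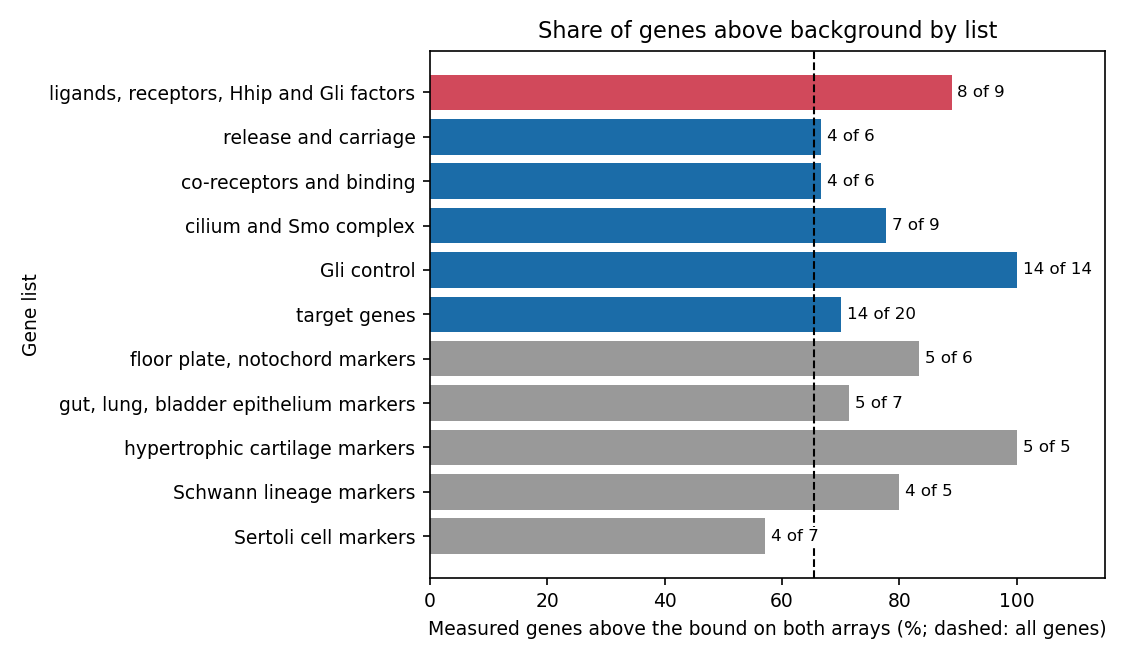
Share of measured genes above the bound on both arrays, in percent, for the 9 Hedgehog genes (red), the other pathway lists (blue) and the markers of ligand-making tissues (grey), with the numbers of genes beside the bars and the share of all named genes, 65.5%, as a dashed line. The Hedgehog genes stand at 8 of 9, Gli control at 14 of 14, target genes at 14 of 20 and Sertoli cell markers at 4 of 7.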

How the data were processed

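Wild type embryos were taken whole at E14.5; their total RNA had been isolated with RNAzol, labelled with biotin and hybridised to 2 Affymetrix Mouse Genome 430 2.0 arrays. The authors made the deposited intensity values with GCOS 1.3, per the labels; they are linear, neither logged nor centred, and their mean after trimming of 2% at each end was 100 on both arrays. Detection calls were not used here, and a bound from 81 receptor probe sets took their place.

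Of 45101 probe sets, 34958 paired with 1 symbol, 932 with several and 9211 were not listed in the annotation used. Symbols were updated by gene identifier through the RefSeq table of GRCm38.p6 (34754 probe sets), used for names only. Log2 differences were taken over probe sets above the bound on both arrays and centred on their median. The members, the other lists and the tests were chosen with earlier results of these data known. All members were named, as was every measured gene of lists with 8 or fewer, and from longer lists the first 4 measured and the exceptions where 5 or fewer; further genes are marked as chosen after their values were seen. Some of the listed pathway and marker genes were not analysed here, nor were protein sequences.

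The alternatives were other bounds (90th and 99th percentile, silent genes of other tissues, the array median), a call that needed the same probe set on both arrays, leaving out probe sets with suffix _s_at or _x_at, each array alone, loess with a span of 0.3, quantile normalization, no centring, and no filter with a pseudocount of 16. The steps were tested on simulated data, in which silent probe sets took their signals from the receptor probe sets. That test could not check if the receptor probe sets stand for background, because they also set the bound. Computations used numpy 2.4.6, pandas 2.3.3, statsmodels 0.14.6, scipy 1.17.1 and matplotlib 3.10.9 in Python 3.11.15. The number of arrays limits the precision.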

Additional observations from a re-analysis of the deposited data

How the results depend on the processing

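The number of Hedgehog genes above background, 8 of 9, ranged from 7 with the bound at the 99th percentile or at the array median to 9 with the 90th percentile bound, and was 8 with array 2 alone and 9 with array 1 alone. The genes that crossed the bound were Dhh and Hhip. Dhh, at -0.2 on the log2 scale relative to the bound on its lower array, stood at 0.03 with the 90th percentile bound and at 0.54 with array 1 alone. Hhip, at 0.05, stood at -0.24 with the 99th percentile bound and at -0.01 with the array median. Shh, Ihh, Ptch1, Smo and the Gli genes stayed above the bound under every alternative run. Gli1 and Ihh did so narrowly, at 0.03 and 0.24 with the 99th percentile bound. The passing probe sets ranged from 10 to 13, the target genes from 13 to 14, and the release, reception and transduction genes from 29 to 33. Of the named genes outside the members, Efcab7 (0.01) and Scube3 (0.06) stood above the bound with the 90th percentile. With either array alone Efcab7 ranged from -0.22 to 0.16, Scube3 from -0.17 to 0.18, Kif7 from -0.82 to 0.05, Scube2 from -0.24 to 0.62 and Lrp2 from -0.49 to 0.11. The median difference between the arrays was -0.03 with loess, -0.01 with quantile normalization and between 0.04 and 0.07 otherwise, so that its sign is not settled. In alternatives chosen after seeing the data, Gli1 stayed between -0.78 and -0.7. Among these same alternatives, the second Gli2 probe set passed 1.5-fold without centring and with loess (0.59 in each). That made 2 probe sets in place of 1. No paired analysis was possible because both arrays are of 1 group.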
